A study of Drosophila melanogaster with 18 samples.

Results

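The regions described here are stretches of the unplaced sequence U and Uextra where the S9.6 signal without RNase H treatment was higher in hrp48 cells than in LacZ cells by more than 1 log2 unit. They were taken from the authors' table of regions of hrp48 cells, which lists 7735 regions, 6313 of them unplaced. The rule picked 3748 regions, 343 of the 606 listed on U and 3405 of the 5707 listed on Uextra. The other 2565 unplaced regions of the same table served for comparison.

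The data came from DRIP-seq, in which DNA fragments that carry RNA-DNA hybrids are recovered with the S9.6 antibody and sequenced. S2 cells, an embryo-derived line of Drosophila melanogaster, gave the genomic DNA. The labels name 3 kinds of cells, LacZ, hrp36 and hrp48, each with S9.6 libraries labelled RNH- and RNH+ and with input libraries, 2 libraries per group. RNH- and RNH+ are read here as material without and with RNase H, LacZ as the control, and hrp36 and hrp48 as knockdowns of the gene named, since LacZ is a bacterial gene that flies lack. All groups share the S2 background, and neither the agent nor the duration of the knockdowns is in the labels. The labels also give a primary culture of late stage as the cell type, which differs from the S2 line they name, and no marker in these tables can tell them apart. Whether the 2 libraries of a group came from separate cultures is not given either. The 12 S9.6 libraries enter the tables only as 6 group means, and the 6 input libraries were not used here.

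An R-loop forms when RNA pairs with a DNA strand and displaces the other strand. RNase H cuts the RNA of such hybrids, so S9.6 signal from a hybrid is lost after the treatment, while signal of another origin stays. The hrp36 and hrp48 proteins (genes Hrb87F and Hrb27C) belong to the hnRNPs, which package nascent RNA and act in its splicing and transport. U and Uextra are artificial joins of scaffolds that could not be put on a chromosome, and they are rich in repeats such as transposons and satellites. Reads from repeats can map to many places, so signal at separate regions need not come from separate molecules.

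Each level below is the authors' group mean of log2(normalised count + 1) for a region. A normalised count is relative to its library, so a level that is higher with RNase H need not be a gain of signal. The regions were chosen by the RNH- means of hrp48 and LacZ cells, so those levels, and every difference that holds one of them, are given as a description. The RNH+ means and both hrp36 means were not used by the rule. They could not be tested, because the tables hold no value of a single library. The columns and region names of the table carry the endings Un and Tr, which the files do not explain. They are read here as RNH- and RNH+, and every direction below rests on that reading. The region names all carry hrp48 and Un, so the list is taken to have been drawn up on hrp48 RNH- material, which favours regions that were high there.

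Across the 3748 regions, hrp48 RNH- was the highest of the 6 groups and LacZ RNH- the lowest. The median log2 level was 6.87 in hrp48 RNH- (5th to 95th percentile 6.16 to 8.02), 5.50 in hrp36 RNH- (4.48 to 6.62) and 4.59 in LacZ RNH- (3.76 to 5.86). With RNase H the cells lay much closer together, at 6.06 in LacZ (5.20 to 7.30), 5.97 in hrp36 (5.05 to 7.19) and 5.70 in hrp48 (4.79 to 7.04). The LacZ RNH+ level was thus above the LacZ RNH- level, and the hrp48 RNH+ level below the hrp48 RNH- level. At the other unplaced regions the 6 medians spanned 8.06 to 8.91, with hrp36 RNH- highest.

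The order of the RNH- groups, which the rule fixes in part, was nearly the same from region to region, and that of the RNH+ groups was not. The hrp48 RNH- mean was the highest of the 6 in 3734 of 3748 regions, and the LacZ RNH- mean the lowest in 3625. In RNH- material the means stood in the order LacZ, hrp36, hrp48 in 3636 regions (97.0%). In RNH+ material the reverse order, with hrp48 lowest, was found in 1672 regions (44.6%).

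**Figure D1:**
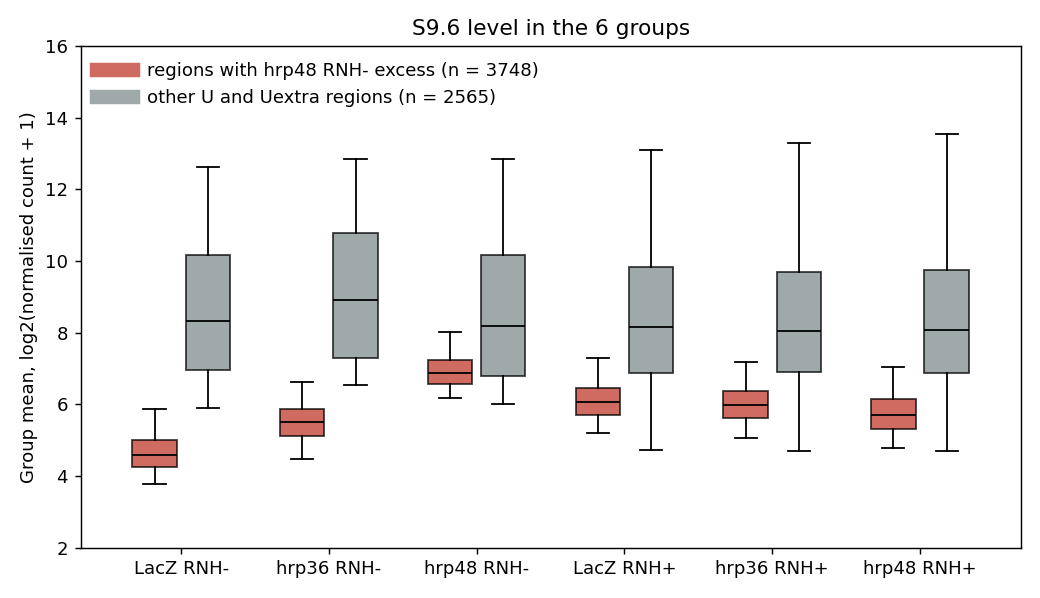
Authors' group mean, log2(normalised count + 1), in each of the 6 groups for the 3748 regions with hrp48 RNH- excess (red) and the 2565 other unplaced regions (grey); boxes give the median and quartiles and whiskers the 5th and 95th percentiles over regions. In the red boxes hrp48 RNH- stands highest at a median of 6.87 and LacZ RNH- lowest at 4.59, while the 3 RNH+ groups lie between 5.70 and 6.06.

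Among the measures that the rule did not use were the hrp36 response to RNase H and the RNH+ difference between hrp48 and LacZ cells. In hrp36 cells the level with RNase H was above the level without it in 3590 of the 3748 regions (95.8%), with a median difference of 0.51 on the log2 scale (quartiles 0.31 and 0.70). At the other unplaced regions the same difference had a median of -0.68 and lay above 0 in 877 of 2565 regions (34.2%). With each group centred on the median of the chromosome arm regions, the median at the selected regions was 0.29, and 3136 of them stayed above 0. The hrp48 RNH+ mean was below the LacZ RNH+ mean in 3201 of 3748 regions, with a median difference of -0.35 (quartiles -0.56 and -0.13). At the other unplaced regions that median was 0.04, with 1165 of 2565 below 0.

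The authors' standard error of the RNase H response in hrp48 cells had a median of 0.39 log2 units over these regions, and the table of hrp48 cells gives no error of any other difference. The authors' tables of hrp36 and LacZ cells give errors of those cells' responses at their own regions, which hold 2 and 0 of the members. Read against 2 such standard errors, a yardstick chosen after the data were seen, the hrp36 RNH+ level was higher than the RNH- level by more in 799 regions (21.3%, against 15.2% of all 7735 regions) and lower in 1 (0.0267%, against 21.6%). Among the other unplaced regions the same count was 194 higher and 1275 lower. The hrp48 RNH+ level was below the LacZ RNH+ level by more than 2 standard errors in 299 regions (7.98%, against 4.52% of all regions) and above it by as much in 6, where the share of all regions was 1.51%. Among the other unplaced regions 37 were below and 36 above. Most regions thus differed by less than this yardstick in both measures, although the sign was shared by most of them. Regions measured in the same libraries are not independent replicates, and a shift of 1 library moves all of them.

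In RNH- material hrp36 cells stood between LacZ and hrp48 cells. The hrp36 mean was above the LacZ mean in 3638 regions, with a median difference of 0.86 (quartiles 0.56 and 1.13), and below the hrp48 mean in 3746. With RNase H, hrp36 was close to LacZ, with a median difference of -0.09 and 2352 regions below 0, and it was above hrp48 in 2928 regions. The LacZ RNH+ mean exceeded the LacZ RNH- mean in all 3748 regions, by a median of 1.45. The comparisons between cells with RNase H hold no group that the rule used. The others share LacZ or hrp48 RNH- libraries with the rule, and the comparisons share libraries with each other.

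**Figure D2:**
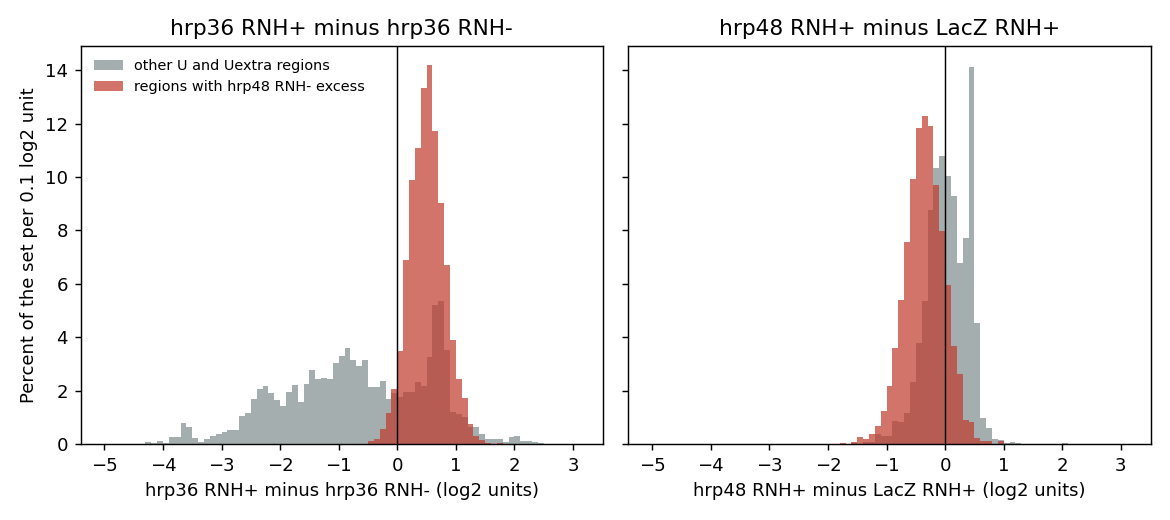
Percent of regions per 0.1 log2 unit of the hrp36 RNH+ minus RNH- difference (left) and the hrp48 minus LacZ RNH+ difference (right), for the selected (red) and the other unplaced regions (grey). The red distributions have medians of 0.51 and -0.35, and the grey ones of -0.68 and 0.04.

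Among members whose base mean reached the members' median, the hrp36 response ran furthest up at Uextra 9124973 to 9125481. Its hrp36 level was 5.42 without RNase H and 6.94 with it, a difference of 1.52, beside 5.40 and 6.43 in LacZ and 7.35 and 6.44 in hrp48 cells. On U it did so at 8060583 to 8061096, where the hrp36 level was 5.39 without and 6.58 with RNase H. At the low end on Uextra lay 21546443 to 21547234, with 8.24 without and 7.49 with RNase H. The extremes of the hrp36 response thus lay on both sides of 0 among the brighter members. In the 937 members with the highest base mean its median was 0.55.

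Among the same members the hrp48 minus LacZ RNH+ difference was lowest at Uextra 25456594 to 25457132, with 4.95 in hrp48 and 6.41 in LacZ cells. On U it was lowest at 9001427 to 9002504, with 5.82 in hrp48 and 7.10 in LacZ cells. It was highest at Uextra 7405136 to 7405764, with 6.58 in hrp48 and 5.89 in LacZ cells, a difference of 0.69. The extremes below 0 were thus farther from it than those above.

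A bound on the spread between the 2 libraries of a group was computed after the data were seen. The authors' base mean is taken to average normalised counts over the 12 S9.6 libraries, which its column name does not state. Base mean plus 1 was not below the mean of the back-transformed group levels in any region, with a lowest ratio of 1.0002. Each group level averages logs. The excess of the base mean over the back-transformed levels thus limits how far the libraries of any group can lie apart. At the selected regions the median of the largest possible fold between 2 libraries was 7.40 in LacZ RNH-, 4.62 in hrp36 RNH-, 2.56 in hrp48 RNH-, 3.50 in LacZ RNH+, 3.65 in hrp36 RNH+ and 4.03 in hrp48 RNH+. Each of these assigns the whole excess to 1 group, so not all can hold at once.

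By this bound both hrp48 RNH- libraries must lie above both LacZ RNH- libraries in 3268 of 3748 regions, 87.2% against 42.4% of all 7735 regions in the table. That contrast is the rule's own and nothing is read from it. Both hrp48 RNH- libraries lay above both hrp36 RNH- libraries in 2146 regions, 57.3% against 27.9%. They lay above both hrp48 RNH+ libraries in 1606 regions, 42.8% against 22.2%. Both LacZ RNH+ libraries lay above both LacZ RNH- libraries in 1233 regions, 32.9% against 17.2%. Both hrp36 RNH- libraries lay above both LacZ RNH- libraries in 43 regions, 1.15% against 0.608%. All of these counts hold a group that the rule used. For hrp36 RNH+ above hrp36 RNH- the bound separated the libraries in 289 regions, 7.71% against a background of 6.02%. For LacZ RNH+ above hrp48 RNH+ it did so in 29 regions, 0.774% against 0.478%. The hrp36 response was thus separated at a share near that of all regions, which include the members. At the other unplaced regions the bound separated 52 (2.03%) for the hrp36 response and 3 (0.117%) for LacZ RNH+ above hrp48 RNH+. The order of the single hrp36 libraries is unresolved in most regions.

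Signal per base was low and varied little among the members. The base mean per kilobase had a median of 106.0 normalised counts, with quartiles of 92.6 and 124.4. From the 5th to the 95th percentile it ran from 76.9 to 170.9, a 2.22-fold range. The other unplaced regions had a median of 709.5 per kilobase and a range of 140-fold between the same percentiles, and the chromosome arm regions a median of 423.3. The lowest member had 56.2 normalised counts per kilobase, and 0 of the 2565 other unplaced regions lay below it. Of those others, 210 (8.19%) were no higher than the 95th percentile of the members. The base mean includes both groups that the rule used, so the level per base is given without a test.

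By group, the median of normalised counts per kilobase, back-transformed from the group means, was 195.3 in hrp48 RNH-, 73.8 in hrp36 RNH- and 38.8 in LacZ RNH-. In RNH+ material it was 110.3 in LacZ, 103.8 in hrp36 and 85.9 in hrp48. The regions held 8.02% of the summed signal of the table in hrp48 RNH- and 1.87% in LacZ RNH-. In hrp36 RNH- they held 2.50%, and in RNH+ material 4.37% in LacZ, 3.82% in hrp36 and 2.85% in hrp48. They made up 65.1% of the unplaced bases in the table, 2443494 of 3756208.

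The 210 other unplaced regions at or under the members' 95th percentile, a comparison chosen after the data were seen, were brighter than most members, with a median base mean of 146.1 per kilobase and a lowest of 87.4. The median level was lower with RNase H in all 3 kinds of cells, where the median difference was -1.23 in LacZ cells, -2.31 in hrp36 cells and -1.60 in hrp48 cells. The hrp36 level was higher with RNase H in 0 of these 210 regions. Their medians per kilobase without RNase H were 144.8 in LacZ, 300.8 in hrp36 and 181.7 in hrp48, and with it 60.3, 58.1 and 57.0. Without RNase H these regions were highest in hrp36 cells, where the members were highest in hrp48 cells. The list favours regions high in hrp48 RNH-, and a cap on the base mean of all groups then favours low RNH+ levels. Their falls with RNase H therefore follow in part from the choice, and nothing is read from them.

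**Figure D3:**
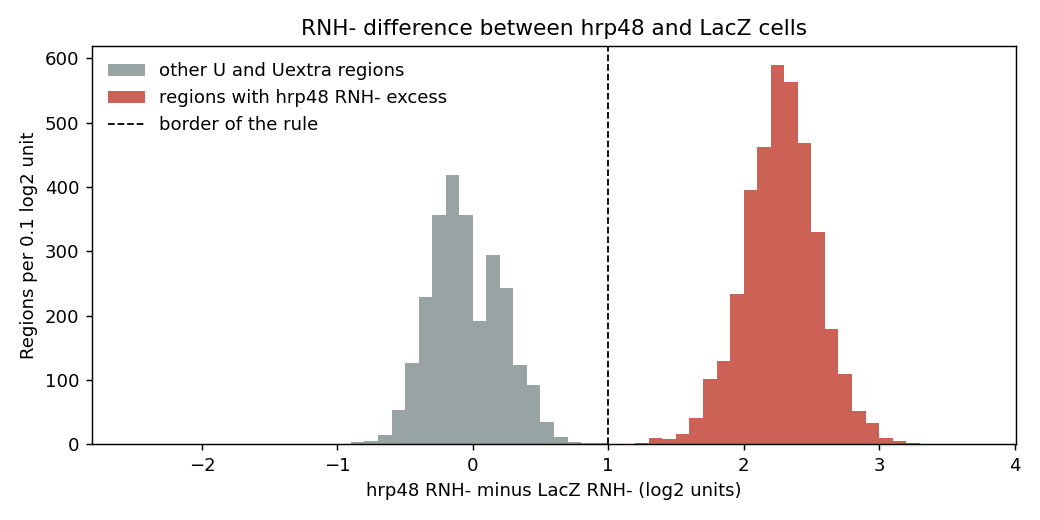
Number of unplaced regions per 0.1 log2 unit of the hrp48 minus LacZ RNH- difference, with the border of the rule at 1 as a dashed line. The selected regions (red) gather around 2.28, the other regions (grey) near 0, and few of either lie close to the border.

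The border of the rule fell in a sparse zone. The median excess was 2.28 (quartiles 2.10 and 2.45), and 21 members and 54 other regions lay within 0.5 of the border. The members nearest to it were U 7859656 to 7861513 with an excess of 1.01, U 6714384 to 6715693 with 1.18 and Uextra 5280736 to 5281517 with 1.24. The nearest regions outside were U 1041859 to 1042935 with 0.97, Uextra 9094041 to 9094753 with 0.90 and Uextra 11579987 to 11580424 with 0.86. The region just outside on U was unlike the members, with 1288 normalised counts per kilobase and a hrp36 RNH- level of 11.89.

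Member length was narrowly spread, and the signal of a member was nearly proportional to it. The median length was 574 bases (quartiles 506 and 663, range 193 to 3880). The members on U were longer, with a median of 1286 bases against 566 on Uextra, and the other unplaced regions had a median of 434. For each increase of 1 in log2 length, log2 base mean was higher by 1.02 on U (343 regions, Pearson r 0.91, residual SD 0.35) and by 0.97 on Uextra (3405 regions, r 0.67, residual SD 0.37). At the other unplaced regions the slope was 0.63, with r of 0.19 and a residual SD of 2.25. Length enters the count itself and all regions share the same libraries, so these values are descriptions.

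The groups did not scale with length alike. On U the slope was 0.89 in LacZ RNH-, 0.98 in hrp48 RNH- and 1.14 in hrp36 RNH-, and on Uextra 0.82, 0.92 and 1.10. The hrp36 minus LacZ RNH- difference went from a median of 0.50 at the shortest 86 members on U to 0.99 at the longest 86, and from 0.65 at the shortest 852 on Uextra to 0.97 at the longest 851. The hrp36 RNH+ minus RNH- difference went from 0.60 to 0.45 on U and from 0.57 to 0.46 on Uextra. The hrp36 excess over LacZ was thus larger at long members than at short ones.

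**Figure D4:**
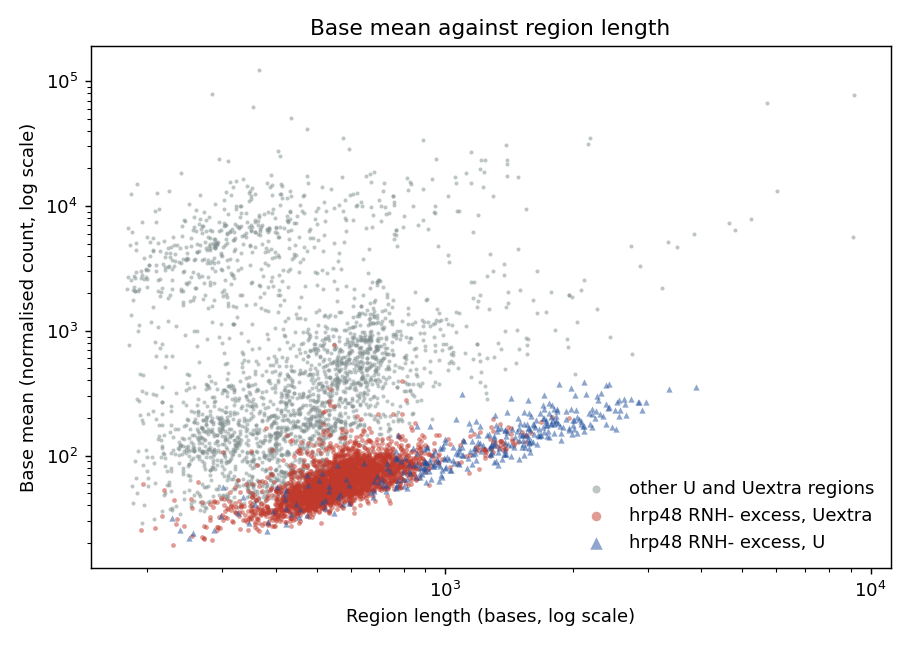
Base mean (normalised count) against region length (bases), both on log axes, with 1 point per unplaced region. Members on U (blue triangles) and Uextra (red) form a narrow band with slopes of 1.02 and 0.97, and most other regions (grey) lie above it.

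The longest members show the same pattern of levels at a high count. The longest on U, 6278044 to 6281923, spans 3880 bases with a base mean of 354.2, or 91.3 per kilobase. Its log2 levels were 6.78 in LacZ, 8.14 in hrp36 and 9.32 in hrp48 RNH-, against 8.36, 8.36 and 8.14 in RNH+. The longest on Uextra, 3059334 to 3061289, spans 1956 bases with levels of 6.13, 7.13 and 8.47 in RNH- and 7.67, 7.66 and 7.50 in RNH+. In both regions the RNH- levels were spread over more than 2 log2 units, while the RNH+ levels were nearly alike.

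Members lay in contiguous runs, taken as members that follow each other in the table with no other listed region between them. There were 1261 runs, 83 on U and 1178 on Uextra, and 455 of them held a single member. Runs of at least 5 numbered 233 and held 1741 members, 46.5% of all. They held 65.9% of the members on U and 44.5% of those on Uextra. Runs of at least 10 held 37.3% of the members on U, in 7 runs, and 11.2% of those on Uextra, in 33 runs. The other unplaced regions lay in runs too. Runs of at least 5 held 52.5% of them on U and 23.2% on Uextra, and their longest runs held 62 and 299 regions. Members made up 59.4% of the unplaced regions, so runs arise in part from that share. Since U and Uextra are joined scaffolds and no map of the joins was used, a run may cross from one scaffold to the next. Runs shorten where gaps are allowed to break them: with a break at gaps over 5000 bases, 15.2% of members lay in runs of at least 5.

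The longest run on U held 31 members between 8129575 and 8264640. Regions covered 35.1% of its 135066 bases, their median length was 1586 bases, and the excess ran from 1.32 to 2.54. Its middle member, 8184095 to 8185707, had RNH- log2 levels of 5.29 for LacZ, 6.45 for hrp36 and 7.84 for hrp48, and of 7.23, 6.94 and 6.78 in RNH+. The next runs on U held 25 members from 7699774 to 7823542 and 17 from 8295974 to 8359125. In the latter run the last member, 8357699 to 8359125, had 203.1 normalised counts per kilobase, more than its middle member at 8324544 to 8325481 with 88.8.

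On Uextra the longest run held 19 members between 21719147 and 21810038, which covered 10.8% of its 90892 bases. Its middle member, 21781168 to 21781633, had RNH- log2 levels of 3.73 for LacZ, 5.09 for hrp36 and 6.29 for hrp48, and of 5.40, 5.31 and 4.91 in RNH+. Further runs held 15 members from 7171454 to 7252221 and 14 from 2840794 to 2946740. Over the runs of at least 5, regions covered a median of 15.1% of the span on Uextra and 23.2% on U.

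On U a member was followed by another member in 75.8% of cases (260 of 343), against 31.7% after another region, where 56.6% of all regions were members. On Uextra the value was 65.4% (2227 of 3405) after a member and 51.2% after another region, with 59.7% members overall. The contrast between the 2 was thus wider on U than on Uextra. Gaps between neighbouring members had a median of 2693.5 bases on U and 2929 on Uextra, and 30.0% and 15.7% of them were under 500 bases.

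The densest window of 50 listed regions on U, from 7599375 to 7881162, held 48 members. Both exceptions had high signal per base, 241.4 normalised counts per kilobase at 7690713 to 7691105 and 1026 at 7835360 to 7837445. On Uextra the densest window, from 4741392 to 5010210, held 44. Neighbouring members resembled each other in length, with r of 0.41 between successive log2 lengths on U and 0.28 on Uextra. They were little alike in signal per base (0.05 and 0.03) or in the excess (0.10 and -0.02). Length also changed with position, with medians of 1859 bases between 7 and 8 Mb on U and 867.5 between 9 and 10 Mb. The likeness in length therefore need not be local. The hrp36 minus LacZ RNH- difference had r of 0.30 between neighbours on U and 0.03 on Uextra.

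**Figure D5:**
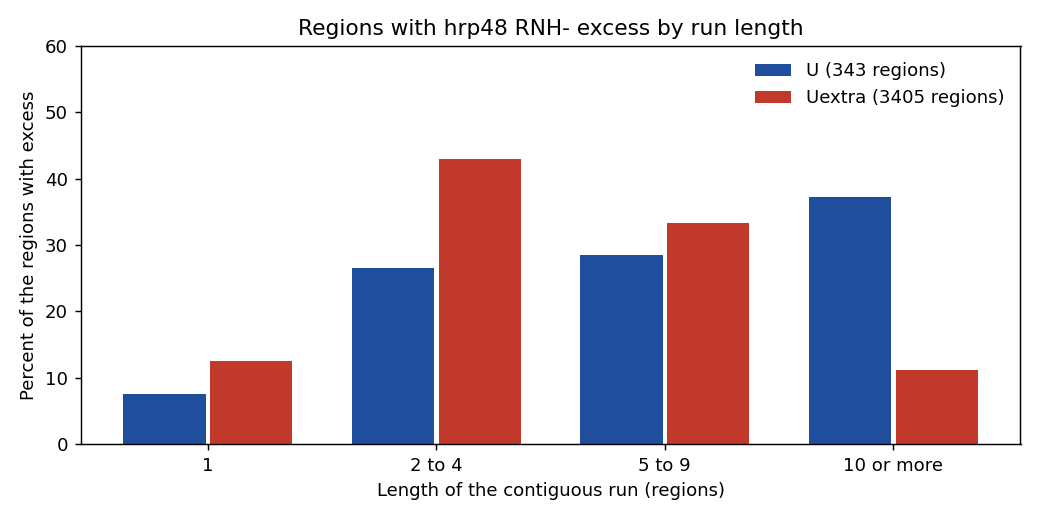
Percent of members by the number of members in their contiguous run, for U (blue, 343 regions) and Uextra (red, 3405 regions). On U 37.3% of members lay in runs of at least 10 and on Uextra 11.2%.

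Members were unevenly spread on U, and more evenly on Uextra except at its ends. On U, 97 of the 116 regions between 7 and 8 Mb (83.6%) and 136 of the 163 between 8 and 9 Mb (83.4%) were members, and 0 of the 52 regions below 2 Mb were. On Uextra, between 2 and 27 Mb, the share of members per Mb ran from 50.7% to 75.5%, and the base mean per kilobase from 97.7 to 112.1. Toward the ends it was lower, at 10.5% between 0 and 1 Mb, 34.2% between 1 and 2 Mb and 45.8% between 27 and 28 Mb. Between 28 and 29 Mb the share was 1.17%, or 4 of 341 regions. Median length was shorter farther along Uextra, going from 808 bases between 2 and 3 Mb to 471 bases between 26 and 27 Mb, while the median excess stayed between 2.21 and 2.35.

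In the authors' deposited table, 2892 of the 3748 regions (77.2%) were called lower with RNase H in hrp48 cells at an adjusted p under 0.05, against 44.6% of all regions in the table. The authors' deposited table called 0 of them higher, against 5.71% of all regions. An unadjusted p under 0.05 came with a fall in 3420 members and with a rise in 0, against 4120 and 620 of all 7735 regions. This contrast shares hrp48 RNH- with the rule, so nothing is read from the share. The median log2 fold change of the members in the authors' deposited table was -1.10. Called lower were 301 of 343 members on U (87.8%) and 2591 of 3405 on Uextra (76.1%), against 14.1% and 19.9% of the other regions there. Called members were longer than uncalled members, with medians of 587 and 529 bases, and had a higher base mean, 64.8 against 58.7. Of the 937 members with the lowest base mean 70.1% were called lower, and of the 937 with the highest 82.3%.

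Among called members whose base mean reached the members' median, the largest fall on each scaffold was at a signal per base near the median, 95.5 normalised counts per kilobase on U and 108.1 on Uextra. The authors' deposited table gives U 8545716 to 8547005 a log2 change of -1.70 with RNase H (SE 0.38, DESeq2 adjusted p = 0.00046). Its levels were 5.26 in LacZ, 6.63 in hrp36 and 7.92 in hrp48 RNH-, and 6.86, 6.88 and 6.15 in RNH+. The authors' deposited table gives Uextra 21800266 to 21800857 a change of -1.97 (SE 0.38, DESeq2 adjusted p = 5.1e-05), and its levels were 4.46, 5.03 and 7.25 in RNH- and 6.31, 5.67 and 5.16 in RNH+. In both, hrp48 was the highest of the 3 kinds of cells without RNase H and the lowest with it. Both regions were picked for a large fall in hrp48 cells among members chosen for high hrp48 RNH-. This order therefore follows in part from the choice.

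A few members departed from the common pattern. Uextra 22671991 to 22672538 had the highest base mean, 767.2, or 1400 per kilobase, and 22 members in all exceeded 300 per kilobase. Its levels were 8.29 in LacZ, 8.08 in hrp36 and 9.92 in hrp48 RNH-, and 9.66, 9.31 and 10.10 in RNH+, so hrp48 was highest in both. It was 1 of 2 members with a log2 fold change above 0 in the authors' deposited table, at 0.13. The other is Uextra 23832937 to 23833452, with 0.21 in the authors' deposited table. Uextra 21546443 to 21547234 had levels of 5.72, 8.24 and 7.78 in RNH- and 8.91, 7.49 and 7.71 in RNH+. At that region and at U 7859656 to 7861513 the hrp36 RNH- mean exceeded the hrp48 RNH- mean. At the faint end, Uextra 21689947 to 21690458 had 56.2 normalised counts per kilobase and levels of 3.49, 4.07 and 6.31 in RNH-, with 4.55, 4.51 and 4.55 in RNH+.

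The regions listed for the other cells, 6477 for LacZ and 2980 for hrp36, hardly touched the members. Of the 3748, 0 overlapped a region of the LacZ table, against 1930 of the 2565 other unplaced regions (75.2%). An overlapping region of hrp36 cells was listed for 2 members, U 6714384 to 6715693 and U 7859656 to 7861513, against 1897 of the others (74.0%). Both are among the members nearest the border, and both had a lower hrp36 level with RNase H, with differences of -0.32 and -1.05. The rule picked members for a LacZ RNH- level below the hrp48 RNH- level. In LacZ RNH- their median was 38.8 normalised counts per kilobase, against 658.0 at the other unplaced regions. Absence of members from the LacZ list therefore follows in part from the rule. In hrp36 RNH- the members' median was 73.8 per kilobase, against 924.9 at the other unplaced regions. Nothing is read from the overlap with either list. The overlap was not computed for all regions of the table together. Each list was drawn up on its own cells, so absence from a list does not show that a region had no signal in those cells.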

How the data were processed

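The 18 DRIP-seq samples were put into 9 groups of 2 by their titles. The tools listed in the submitters' processing notes are DESeq2, MACS 1.4.2 and Bowtie2 2.2.2, with build dm3. The sources used here do not give their roles or how reads with several places were treated. The authors deposited log2 values as group means of normalised counts with a pseudocount of 1, as tested on the files. The base mean is a normalised signal that the authors deposited. The authors also deposited the Wald score, the p-value raw and adjusted, and a shrunken log2 fold change with its standard error, in tables named for DESeq2. Depth per library is unknown, so no counting error is given.

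Members and lists were chosen with earlier results of these data known. From the files, differences, signal per base, runs, positions and overlaps (at least 1 base) were computed with Python 3.11.15, NumPy 2.4.6 and pandas 2.3.3, and plotted with Matplotlib 3.10.9. The run finder and the library bound were tested on simulated data. No sequence was printed, since no genome of the build was used. Named regions, on U and Uextra each, were the ends and middles of the 3 largest runs, the 3 longest, the 5 highest by base mean, the 3 highest and lowest per base, the 5 largest called changes, the 5 on each side of the border, and the extremes of the hrp36 response and the RNH+ difference. Members overlapping other tables, isolated members and other regions inside the densest window completed the rule. The text gives a part of them.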

Additional observations from a re-analysis of the deposited data

How the results depend on the processing

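Over 54 alternative values of 11 results, 46 were counted as the same as the main value and 8 as moved. A median difference counted as the same within 0.39 log2 units of the main value, the median of the authors' standard error. Other results counted as the same within a factor of 1.5. The width of 0.39 exceeds the size of the main hrp48 minus LacZ RNH+ difference, -0.35, so the label says little about it. Only the median differences could change sign, and none of them did. The median hrp48 minus LacZ RNH+ difference ran from -0.38 to -0.33 and the median hrp36 minus LacZ RNH- difference from 0.80 to 1.04. The median hrp36 RNH+ minus RNH- difference ran from 0.49 to 0.52, except for 0.29 with levels centred on the chromosome arms, against 0.51. No spread between libraries is at hand to judge these shifts. The values that moved most were the following. At an adjusted p under 0.01, 950 members were called lower, against 2892. On U alone the median length was 1286 bases. Signal per kilobase was 195.3 from the hrp48 RNH- mean and 38.8 from the LacZ RNH- mean, against 106.0 from the base mean. With runs broken at gaps over 5000 bases there were 2038 runs and 15.2% of members in runs of at least 5, and at gaps over 1000 bases 3231 runs and 0.534%, against 1261 and 46.5%. Borders of 0.5, 1.5 and 2 gave 3802, 3727 and 3204 members. No paired analysis was possible because the tables hold group means and no value of a single library, and leaving out 1 library was not run for the same reason.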
